A study of Mus musculus with 18 samples.

Results

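Microglia and macrophages taken from the same injured spinal cords after an injection of recombinant IL-4 (rIL-4) were compared across all genes. The members are 6 of the 18 libraries of the series: the microglia and the macrophages of mice 8, 9 and 10, each pair from 1 mouse. Each of these adult female C57BL/6J mice had a contusion injury of the spinal cord (SCI), received rIL-4 into the lesioned cord 48 h later and was killed 24 h after that. Microglia were sorted as CD45-low cells and macrophages as CD45-high cells, both positive for CD11b and F4/80. The reference was the same pair of cell types from mice 1, 2 and 3, which had the same injury and an injection of PBS (6 libraries), and a short comparison was made with mice 5, 6 and 7, which received rIL-13 (6 libraries). No uninjured cord is among these groups, so every group carries the injury and an injection. Each group has 3 mice. The question was which differences between the 2 cell types were kept, lost or gained under the cytokine. Below, a cell type difference is the log2 fold change of microglia over macrophages of the same mouse, so that a positive value is higher in microglia. Levels of single genes are normalized counts, which are counts divided by the size factor of the library, and 3 values in a row are from mice 8, 9 and 10 (IL-4) or 1, 2 and 3 (PBS).

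Microglia are the resident macrophages of the central nervous system. They are seeded in the embryo, renew themselves locally and keep a set of genes that depends on signals of the healthy tissue, among them TGF-beta. Macrophages of the lesion come mainly from blood monocytes that enter after the injury. IL-4 binds a receptor that contains the IL-4Ralpha chain and activates STAT6 through Janus kinases, and in macrophages this turns on the program known as alternative activation, with chitinase-like and resistin-like proteins and the mannose receptor.

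The libraries held 35961305 to 45849829 counts, and the 6 IL-4 libraries 37963978 to 45849829. Defining markers were higher in the cell type of the label. The 24 homeostatic microglia genes summed to 7042 to 9858 CPM (counts scaled to a common library total) in IL-4 microglia and to 2841 to 3238 in IL-4 macrophages, and 30 genes of monocyte-derived macrophages to 9028 to 11564 and 27123 to 31573. Markers of other cells differed between the sorted populations. The 16 fibroblast and pericyte markers summed to 339.5 to 1761 CPM in IL-4 microglia, with mouse 10 at the low end, and to 6.30 to 14.2 in IL-4 macrophages, where Lum, Col12a1 and Fibin had no count. In the PBS libraries the same sums were 3333 to 5225 and 19.1 to 31.0. The 10 endothelial markers summed to 2629 to 4074 in IL-4 microglia and 227 to 397 in IL-4 macrophages, and the 12 neutrophil markers to 123 to 192 and 295 to 932. The 13 lymphocyte markers were low in both, at 3.11 to 12.9 and 5.29 to 10.4, and Cd3e, Cd3g and Trac had no count in the IL-4 libraries. The number of genes with at least 1 count was 15193 to 15626 in IL-4 microglia, 17452 to 17529 in IL-4 macrophages and 17553 to 18371 in the PBS libraries. In sorted bulk samples, a smaller share of cells of a type and less RNA per cell cannot be told apart. The part of such other cells, and of the lower number of detected genes, in the results was not tested.

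Most cell type differences seen after PBS were also seen after IL-4. Of 15800 genes tested, 4218 (26.7%) were differentially expressed (DE) between microglia and macrophages after IL-4, 2226 (14.1%) higher in microglia and 1992 (12.6%) higher in macrophages. After PBS, 4105 (26.0%) were DE, 2445 (15.5%) higher in microglia and 1660 (10.5%) higher in macrophages. In all, 2930 genes were DE in the same direction after both, which is 69.5% of the IL-4 calls and 71.4% of the PBS calls. Of the genes higher in microglia after PBS, 73.0% remained so after IL-4, and of those higher in macrophages, 68.9%. Of the genes higher in microglia after IL-4, 80.2% had been so after PBS, and of those higher in macrophages after IL-4, 57.4%. The difference between the cell type difference after IL-4 and after PBS, tested in the same model, passed the threshold for 186 genes (1.18%), 117 (0.741%) shifted towards microglia and 69 (0.437%) towards macrophages. This split was 105 and 97 without the block, where 112 of the 186 genes were called again, and 47 and 11 without mouse 2. Those 186 genes fell into 5 classes. For 67 the difference kept its direction and was wider after IL-4, for 48 it was narrower, for 18 it was DE in opposite directions, for 24 it was lost (DE after PBS and not after IL-4) and for 29 it was gained. A further 1129 genes were DE after PBS alone and 1237 after IL-4 alone without a difference that passed its own test, and these are counted neither as lost nor as gained. The count of 186 depended on single mice: it was 56, 58, 39 and 49 without mouse 1, 2, 3 or 10, and 164 and 173 without mouse 8 or 9. The count after PBS was likewise 2539, 2315 and 2551 without mouse 1, 2 or 3, and that after IL-4 stayed between 3422 and 3626 whichever mouse was left out. The mice of the 2 treatments are different animals, so that the treatment and anything else that separated these mice cannot be told apart.

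**Figure D1:**
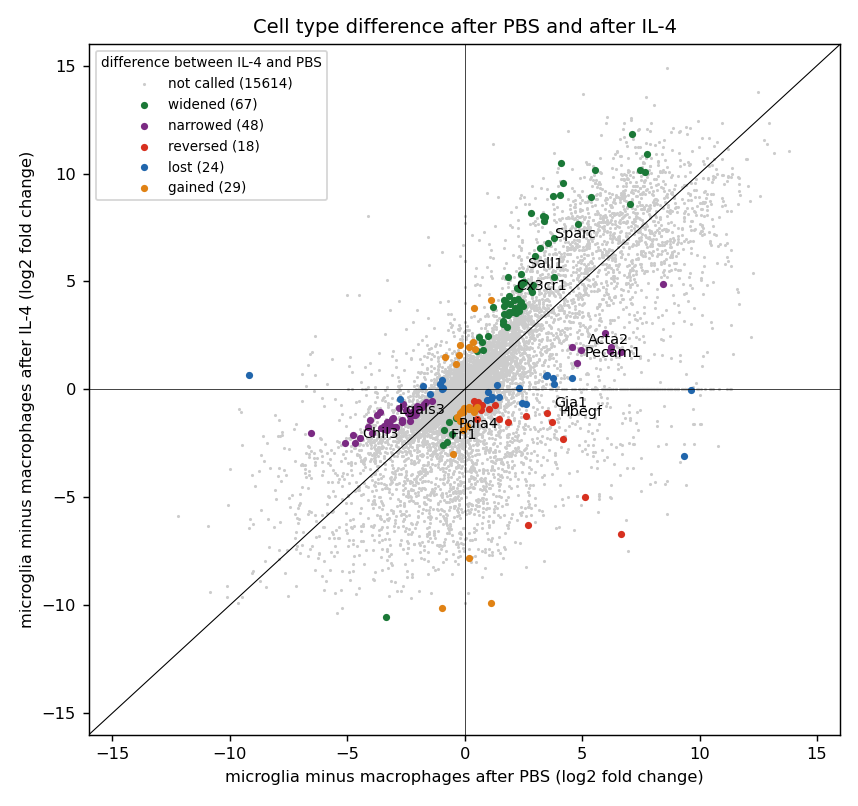
Each point is 1 of the 15800 genes, with its microglia minus macrophages log2 fold change after PBS on the horizontal axis and after IL-4 on the vertical axis, and the diagonal marks equal differences. Coloured points are the 186 genes whose difference changed, 67 wider, 48 narrower, 18 reversed, 24 lost and 29 gained.

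Some homeostatic microglia genes were among those that set the cell types further apart after IL-4, but the sum of the list was not. Summed CPM of the 24 genes was lower after IL-4 in both cell types. It was 15353 to 26052 in PBS and 7042 to 9858 in IL-4 microglia, and 5412 to 8072 and 2841 to 3238 in macrophages. Of the 24 genes of the list, 21 were DE and higher in microglia and 1 was higher in macrophages after IL-4, against 14.1% and 12.6% of all genes tested. After PBS, 23 were higher in microglia. The median cell type difference of the list was 2.46 after IL-4 and 1.68 after PBS, where the medians of all genes were -0.11 and 0.05. Of the 24, 6 were wider after IL-4 by the test of the difference (Fcrls, Cx3cr1, Sparc, Gpr34, Sall1 and Tmem119) and none was called towards macrophages in the edgeR model with all 12 libraries, against 0.741% and 0.437% of all genes. The number shifted towards microglia was 4, 5, 4, 6, 6 and 6 without mouse 1, 2, 3, 8, 9 or 10, 3 without the block, 3 against a fold of 2, 8 with all genes that had a count, 8 of 21 when each library had to hold 10 counts and 10 with DESeq2. Shifts towards macrophages numbered 2 at an unadjusted p under 0.05, and 1 was called without mouse 8, with the minimum of 10 counts and with DESeq2. Fcrls (chr3:87250758-87263738), an Fc receptor-like scavenger molecule used as a microglia marker, measured 1608, 881 and 1178 normalized counts in IL-4 macrophages and 29122, 16883 and 20717 in IL-4 microglia. The PBS values were 19983, 10643 and 20752 in macrophages and 67698, 36849 and 60839.7 in microglia. IL-4 macrophages thus had the lowest level of the 4 groups, with no overlap with any of the others. Its cell type difference was 4.13 (SE 0.12, adjusted p = 8.7e-07) after IL-4 and 1.68 (SE 0.11, adjusted p = 1.8e-05) after PBS, a change of 2.45 (SE 0.15, adjusted p = 0.0019).

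Cx3cr1 (chr9:119901616-120069879), the fractalkine receptor, was also lowest in IL-4 macrophages. Its levels were 659, 586 and 762 in IL-4 macrophages and 19712, 11592 and 11971 in IL-4 microglia, against 18816, 10454 and 20445 in PBS macrophages and 75599, 38709 and 71084 in PBS microglia. The difference went from 1.88 to 4.34 (change 2.46, SE 0.25, adjusted p = 0.0066). Tmem119, a microglial membrane protein of the same use as a marker, measured 566, 444 and 524 in IL-4 macrophages and 6006, 3164 and 4061 in IL-4 microglia, where PBS macrophages had 8296, 4757 and 7817 and PBS microglia 25705, 15304 and 23686. Both cell types were lower in each IL-4 library than in each PBS library, and the change of the difference was 1.39 (SE 0.19, adjusted p = 0.019). Gpr34, a lysophospholipid receptor, went from 2.40 to 4.81 (change 2.41, SE 0.28, adjusted p = 0.0096). Sall1, a transcription factor that keeps the microglial program, measured 26.9, 21.8 and 16.3 in IL-4 macrophages and 1036, 689.6 and 1104 in IL-4 microglia (difference 5.37, SE 0.30, adjusted p = 1e-05). Its change from PBS was 2.98 (SE 0.37, adjusted p = 0.013). Sparc, a secreted matrix-binding protein that fibroblasts and endothelial cells also make, had the largest difference of the list after IL-4, 6.78 (SE 0.32, adjusted p = 4.4e-06). P2ry12, the ADP receptor of microglial processes, kept its difference of 2.66 (SE 0.23, adjusted p = 7.1e-05) after IL-4, with a change of 0.52 (SE 0.30, adjusted p = 0.54) that was not called. Of the other members, Tgfbr1, a receptor of TGF-beta, was DE in the other direction (-1.06, SE 0.27, adjusted p = 0.021), and Csf1r, the receptor that microglia need to survive, had -0.11 (SE 0.15, adjusted p = 0.65) after IL-4 against 0.83 (SE 0.15, adjusted p = 0.0043) after PBS, with a change that was not called (adjusted p = 0.094). Sall1 (mouse 1 or 3, adjusted p up to 0.067) and Tmem119 (mouse 1, 2, 3 or 10, adjusted p up to 0.094) lost the call of the change when a mouse in parentheses was left out. Tgfbr1 (mouse 8 or 10, adjusted p up to 0.13) lost the call after IL-4 when a mouse in parentheses was left out.

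**Figure D2:**
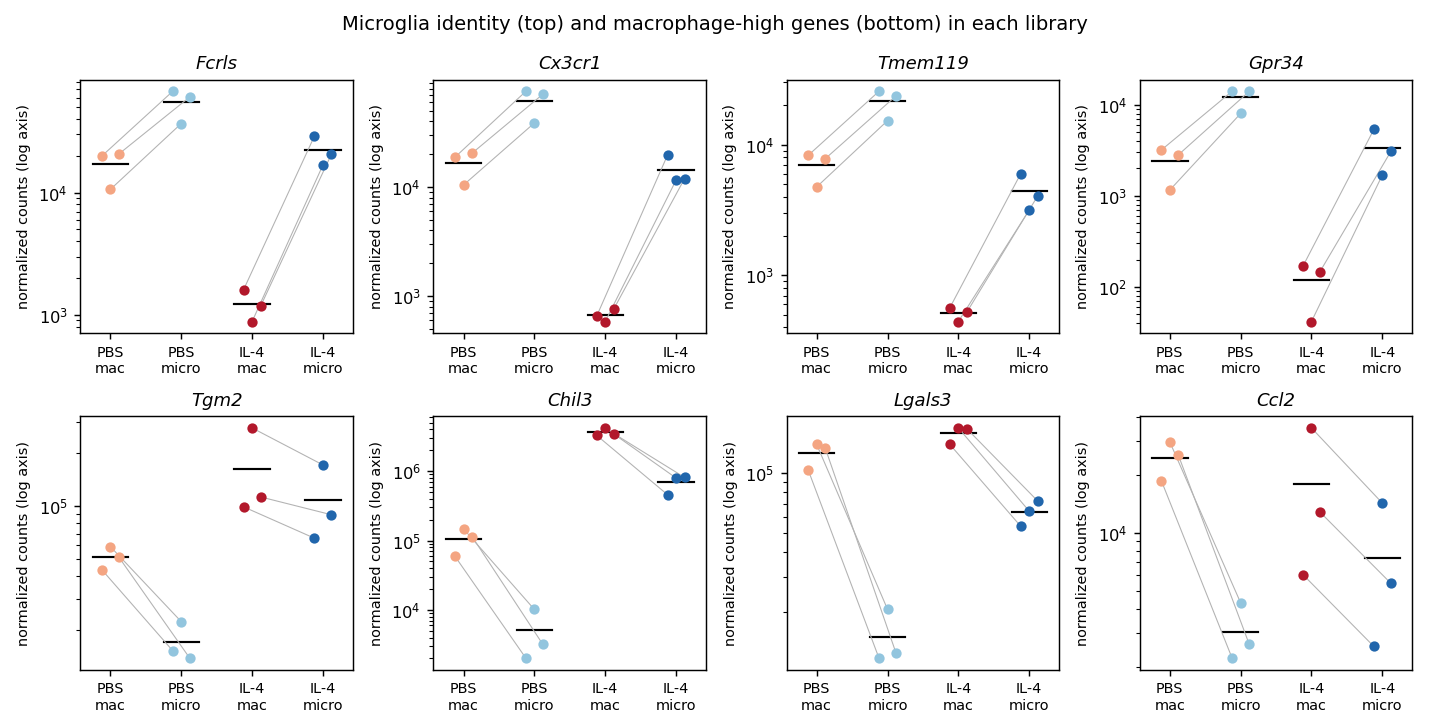
Normalized counts on a log axis in each of the 12 libraries, with points for libraries, black bars for group means and grey lines that join the 2 cell types of a mouse. The upper 4 genes were lowest in IL-4 macrophages (Cx3cr1 at 659, 586 and 762), while for the lower 4 the gap between cell types was smaller after IL-4 (Chil3 difference -2.50 against -4.65 after PBS).

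Promoters of 4 genes that hold a motif of STAT6 or of the myeloid factor PU.1 are shown, chosen after the search: Fcrls, which led the shift towards microglia, Cd5l and Lgals3, which also shifted towards microglia, and Retnla, which IL-4 macrophages and microglia both held at high levels. The sequences are from RefSeq on GRCm38.p6, 5′ to 3′ on the strand of the gene, 250 bases before to 50 after the start. Capitals mark TTCNNNNGAA, the spacing that STAT6 prefers, or GGAAGT, a core that PU.1 and other ETS factors bind, searched on both strands with no overlap between the 2 motifs in these windows.
Fcrls, chr3:87263475-87263774, minus strand: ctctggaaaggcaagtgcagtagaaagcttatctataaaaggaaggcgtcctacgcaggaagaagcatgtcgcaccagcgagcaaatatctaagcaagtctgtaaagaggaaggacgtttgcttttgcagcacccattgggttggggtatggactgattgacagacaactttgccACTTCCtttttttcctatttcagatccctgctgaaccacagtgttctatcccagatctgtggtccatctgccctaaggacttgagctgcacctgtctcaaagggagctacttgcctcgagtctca
Cd5l, chr3:87357631-87357930, plus strand: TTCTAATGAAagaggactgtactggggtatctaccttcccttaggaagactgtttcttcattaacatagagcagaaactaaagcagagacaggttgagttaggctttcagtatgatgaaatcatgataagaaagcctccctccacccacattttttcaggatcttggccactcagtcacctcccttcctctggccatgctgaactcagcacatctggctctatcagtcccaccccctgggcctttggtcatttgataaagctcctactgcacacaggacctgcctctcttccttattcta
Lgals3, chr14:47373610-47373909, plus strand: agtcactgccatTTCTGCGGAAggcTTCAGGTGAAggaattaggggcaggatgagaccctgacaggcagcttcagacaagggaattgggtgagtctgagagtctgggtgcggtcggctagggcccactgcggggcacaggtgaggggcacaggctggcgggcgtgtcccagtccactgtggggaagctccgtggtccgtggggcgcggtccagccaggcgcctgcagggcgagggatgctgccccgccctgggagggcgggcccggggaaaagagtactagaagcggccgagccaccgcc
Retnla, chr16:48842359-48842658, plus strand: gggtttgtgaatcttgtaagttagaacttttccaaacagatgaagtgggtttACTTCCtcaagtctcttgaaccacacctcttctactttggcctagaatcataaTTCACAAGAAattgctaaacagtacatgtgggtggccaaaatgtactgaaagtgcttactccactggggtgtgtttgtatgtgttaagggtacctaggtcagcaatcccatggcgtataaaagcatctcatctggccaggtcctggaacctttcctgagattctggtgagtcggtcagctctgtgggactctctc
TTCNNNNGAA was present in 6.95% and GGAAGT in 23.8% of the 32851 promoters of this length in the table. Of the 24 genes with the lowest p for the difference between IL-4 and PBS, 12 taken in each direction, 18 had a promoter there. Among the 8 of these that shifted towards microglia, 1 held TTCNNNNGAA and 4 held GGAAGT, and among the 10 that shifted towards macrophages, 1 and 2. A gene was counted if any of its promoters held the motif, while the percentages are of single promoters, so the 2 are not like measures. A match is a run of letters, and binding was not measured here.

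Outside that list, other genes also had wider differences towards microglia after IL-4. Hpgds, the hematopoietic prostaglandin D synthase, measured 501, 245 and 349 normalized counts in IL-4 macrophages and 5518, 4686 and 5052 in IL-4 microglia, against 3389, 2673 and 3609.9 in PBS macrophages and 7754, 5529 and 9601 in PBS microglia. Its change was 2.59 (SE 0.23, adjusted p = 0.0042). Pmp22, a tetraspan membrane protein known from myelin, changed by 2.31 (SE 0.16, adjusted p = 0.0025) and stood at 467, 402 and 406 in IL-4 macrophages and 7295, 7726 and 7158 in IL-4 microglia. It is in the list of oligodendrocyte and Schwann cell markers, and the part of those cells in its level was not tested. St3gal6, a sialyltransferase, Tgfa, a ligand of the EGF receptor, and Tspan7, a tetraspanin, were wider by 4.56, 4.68 and 2.46 (adjusted p = 0.0025, 0.0031 and 0.0066). IL-4 macrophages held 12.0, 10.9 and 25.8 normalized counts of St3gal6 and 9.26, 14.9 and 4.78 of Tgfa, and IL-4 microglia 3872, 4449 and 4235 of St3gal6 and 2051, 3349 and 2421 of Tgfa. Cd34 and Jam2, which endothelial cells express strongly, were wider by 3.19 (SE 0.29, adjusted p = 0.0042) and 3.36 (SE 0.26, adjusted p = 0.0025). Cd34 measured 19042, 18029.8 and 17580.0 in IL-4 microglia and 268, 206 and 249 in IL-4 macrophages. The sum of the 10 endothelial markers was 1345 to 2803 CPM in PBS microglia and 2629 to 4074 in IL-4 microglia, and of these markers Cldn5 and Ly6c1 were wider (changes 2.38 and 2.67) and Pecam1 narrower. Cldn5 (mouse 1, 3 or 10, adjusted p up to 0.074) and Ly6c1 (mouse 1, 2, 3 or 10, adjusted p up to 0.072) lost the call of the change when a mouse in parentheses was left out.

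Cd5l, a secreted apoptosis inhibitor of macrophages, gained a difference. It was not DE between cell types after PBS (difference 0.38, SE 0.22, adjusted p = 0.26) and was higher in microglia after IL-4 (3.76, SE 0.26, adjusted p = 2.2e-05), with 46.3, 45.7 and 66.9 in IL-4 macrophages and 679, 649.8 and 906 in IL-4 microglia. PBS macrophages had 1369.8, 1039.5 and 1658, so the IL-4 macrophages were the group that stood apart. Serpina3g, a serine protease inhibitor, showed the other pattern. It measured 8572, 17589.7 and 11336 in IL-4 microglia and no more than 141 in any library of the other 3 groups, and its difference was 8.18 (SE 0.48, adjusted p = 1.1e-05) after IL-4 and 2.85 (SE 0.53, adjusted p = 0.0045) after PBS. Postn, the matrix protein periostin, also had its highest level in IL-4 microglia (10703, 11967 and 6873), against 439, 534 and 277 in IL-4 macrophages and 1073, 1979 and 1268 in PBS microglia, a change of 1.65 (SE 0.17, adjusted p = 0.0074). Fibroblasts are a known source of periostin. The 16 fibroblast and pericyte markers differed in sum between PBS and IL-4 microglia (the ranges given above), and the part of fibroblasts in the level of Postn was not tested. Slc40a1, the iron exporter ferroportin, and Gas6, a ligand of TAM receptors, were wider by 2.03 and 1.42 (adjusted p = 0.02 and 0.037). Gas6 (mouse 1, 2, 3 or 10, adjusted p up to 0.15) and Slc40a1 (mouse 2, 3 or 10, adjusted p up to 0.09) lost the call of the change when a mouse in parentheses was left out.

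Most macrophage identity genes were higher in macrophages after IL-4, and for 3 of them the difference was narrower than after PBS. After IL-4, 25 of the 30 genes were higher in macrophages and the other 5 were not called, where 12.6% of all genes were higher in macrophages. After PBS it was 28, against 10.5% of all genes. The median difference of the list was -1.97 after IL-4 and -3.04 after PBS. Ms4a7, Lyz2 and Lgals3 were narrower by the test of the difference and Fn1 was wider. Over all genes, 0.741% were called for a change towards microglia and 0.437% towards macrophages. The number of list genes shifted towards microglia was 1, 2, 1, 4, 7 and 1 without mouse 1, 2, 3, 8, 9 or 10, 2 without the block, 0 against a fold of 2, 6 with all genes that had a count, 11 with DESeq2 and 8 of 26 when each library had to hold 10 counts. Lgals3 (galectin-3, chr14:47367751-47386160) measured 138434, 167403 and 165752 normalized counts in IL-4 macrophages and 53938, 64193 and 72137 in IL-4 microglia, against 103183, 138537 and 133076 in PBS macrophages and 11796, 20731 and 12515 in PBS microglia. The macrophage levels overlapped between the injections, and the microglia were higher after IL-4 than after PBS in every library. The difference went from -3.11 to -1.37 (change 1.74, SE 0.19, adjusted p = 0.0079). Lyz2 (lysozyme 2) went from -2.97 to -1.73 and Ms4a7, a tetraspan membrane protein, from -3.56 to -1.78 (adjusted p of the change = 0.031 and 0.014). Clec4n (dectin-2, a receptor for fungal sugars), which is not in the list, went from -4.04 to -1.41, and here both cell types were lower after IL-4, the macrophages at 573, 1039 and 746 against 7892, 10060.1 and 8255 after PBS. Fn1 (fibronectin) was the exception, with 224746, 163820 and 247298 in IL-4 macrophages and 31729, 28911 and 55040.4 in IL-4 microglia. Its change was -1.63 (SE 0.29, adjusted p = 0.042). Among the list members higher in macrophages after IL-4 were Ccr2, the receptor for CCL2 (-2.84, SE 0.40, adjusted p = 0.0011), Ly6c2 (-3.36) and Plac8 (-2.50). The neutrophil markers S100a8 and S100a9 were also higher in IL-4 macrophages (differences of -2.72 and -2.69), and their part in the macrophage list was not tested. Fn1 (mouse 2, 3, 8, 9 or 10, adjusted p up to 0.15), Lyz2 (mouse 1, 3 or 10, adjusted p up to 0.14) and Ms4a7 (mouse 1, 2, 3 or 10, adjusted p up to 0.067) lost the call of the change when a mouse in parentheses was left out.

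Among inflammatory genes, the cell type difference of 5 of the 25 tested was narrower after IL-4. Of the 25 tested genes of the list, 10 were higher in macrophages and 3 higher in microglia after IL-4, against 13 and 1 after PBS, where 12.6% and 14.1% of all genes were called after IL-4 and 10.5% and 15.5% after PBS. The 5 genes Ccl2, Ccl7, Ccl9, Il1b and Il1rn shifted towards microglia, against 0.741% of all genes. That number was 2, 3, 2, 4, 4 and 3 without mouse 1, 2, 3, 8, 9 or 10, 0 without the block, 3 with all 18 libraries and 7 with DESeq2. The neutrophil markers summed to 1094 to 1684 CPM in PBS macrophages and 295 to 932 in IL-4 macrophages, and to 232 to 279.7 and 123 to 192 in microglia, and their part in these shifts was not tested. The change of Ccl9, a chemokine of myeloid cells, was 0.90 (SE 0.15, adjusted p = 0.035). Ccl2, which draws CCR2-positive monocytes, measured 6046, 35045 and 12797 in IL-4 macrophages and 2559, 14244 and 5452 in IL-4 microglia. The 2 groups overlap, because mouse 9 had the highest and mouse 8 the lowest level in both cell types, but in each of the 3 mice the macrophages were above the microglia. With the mouse in the model the difference was -1.31 (SE 0.12, adjusted p = 9.9e-05), against -3.06 (SE 0.13, adjusted p = 4.6e-06) after PBS. Ccl7, a related monocyte attractant, had 7697, 36769 and 14841 in IL-4 macrophages and 3777, 18378 and 7773 in IL-4 microglia, and its difference went from -3.60 to -1.04 (change 2.56, SE 0.20, adjusted p = 0.0025). Without the mouse in the model neither gene was DE between the cell types after IL-4. Il1b went from -4.47 to -2.23, and Il1rn, the antagonist of the IL-1 receptor, from -3.73 to -1.17 (adjusted p of the change = 0.032 and 0.034). Tnf kept its higher level in macrophages (-2.18, SE 0.20, adjusted p = 9.6e-05). Ccl5 (4.43, SE 0.75, adjusted p = 0.0028), Ccl12 (1.13) and Il18 (1.59) were the 3 genes higher in microglia after IL-4. Ccl9 (mouse 1, 2, 3, 9 or 10, adjusted p up to 0.14), Il1b (mouse 1, 2 or 3, adjusted p up to 0.12) and Il1rn (mouse 1, 3, 8 or 10, adjusted p up to 0.12) lost the call of the change when a mouse in parentheses was left out. Ccl12 (mouse 8 or 10, adjusted p up to 0.085) and Il1rn (mouse 9, adjusted p up to 0.084) lost the call after IL-4 when a mouse in parentheses was left out.

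Among the genes of alternative activation, Chil3 and Tgm2 set the cell types less far apart after IL-4 than after PBS. Of the 29 genes, 14 were higher in macrophages and 4 in microglia after IL-4, and 13 and 3 after PBS. Over all genes 12.6% were higher in macrophages and 14.1% in microglia after IL-4, and 10.5% and 15.5% after PBS. The list had a median difference of -1.42 and -1.43 (or -1.42 and -0.82 with genes at 0 in a group set to their lower bounds). Chil3 (Ym1, chr3:106147554-106167564), a chitinase-like protein, measured 3277918, 4199536 and 3480930 normalized counts in IL-4 macrophages and 457057, 796059 and 811861 in IL-4 microglia. Its groups stayed apart, with a difference of -2.50 (SE 0.24, adjusted p = 0.00014) after IL-4 and -4.65 (SE 0.27, adjusted p = 1.2e-05) after PBS, and the change of 2.15 (SE 0.33, adjusted p = 0.028) did not pass with DESeq2, where the difference after IL-4 did not pass either (adjusted p = 0.27). Tgm2 (transglutaminase 2, chr2:158116402-158146436), an enzyme that cross-links proteins, measured 99112, 277261 and 112818 in IL-4 macrophages and 65877, 171156 and 89428 in IL-4 microglia, and these ranges overlap, although macrophages were above microglia in each of the 3 mice. PBS macrophages had 43632, 59014 and 51391 and PBS microglia 15188, 22199.8 and 13788, with no overlap. Its difference was also narrower, at -0.60 against -1.63 (adjusted p of the change = 0.038). Chil3 (mouse 1, 3 or 10, adjusted p up to 0.11) and Tgm2 (mouse 1, 2, 3 or 10, adjusted p up to 0.16) lost the call of the change when a mouse in parentheses was left out.

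Retnla (Fizz1, chr16:48842551-48844461) was near 0 after PBS and measured 20122, 47676 and 31005 in IL-4 macrophages and 11209.9, 13534 and 13424 in IL-4 microglia. The groups overlapped after PBS, with 0 to 2.37 in macrophages and 0.873 to 6.84 in microglia, and after IL-4 the macrophages were higher (-1.35, SE 0.25, adjusted p = 0.0045). Mrc1 (CD206, the mannose receptor) measured 43385, 76608 and 57574 in IL-4 macrophages and 5798, 17749 and 16575 in IL-4 microglia (difference -2.32, SE 0.30, adjusted p = 0.00063), and the difference after PBS was -1.77. Slc7a2, a transporter of arginine, had 26381, 43165 and 29358 in IL-4 macrophages and 3157, 8439 and 8001 in IL-4 microglia, a difference of -2.49 (SE 0.34, adjusted p = 0.00085) that was near 0 after PBS (adjusted p = 1), although the change was not called (adjusted p = 0.052). Egr2, Ear2, Cdh1 and Ccl24 were higher in IL-4 macrophages, with differences of -2.85, -2.50, -2.94 and -1.58. The 4 genes higher in IL-4 microglia were Alox15 (5.24), Flt1 (2.40), Ptgs1 (1.50) and Ch25h (1.46). Alox15, the 12/15-lipoxygenase, was low in these cells, with a mean of 4.98 in macrophages and 264, 88.8 and 36.4 in microglia, and Flt1 is an endothelial marker. Ch25h (mouse 8 or 10, adjusted p up to 0.073) lost the call after IL-4 when a mouse in parentheses was left out.

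The transcript of the IL-4 receptor was higher in macrophages after both injections. Il4ra, its IL-4Ralpha chain, measured 12881, 49823 and 23461 in IL-4 macrophages and 4764, 17311 and 9566 in IL-4 microglia, and within each mouse macrophages were above microglia (difference -1.48, SE 0.14, adjusted p = 0.00012, after PBS -1.52). Stat6 and Irs2, which carry the signal on, were higher in macrophages, with differences of -0.76 and -1.66. Il2rg, the common gamma chain, was DE after PBS (-1.01) and not after IL-4 (-0.49, SE 0.17, adjusted p = 0.062), and Il13ra1 was not DE after either. Cish, a feedback inhibitor that cytokine receptors induce, was higher in macrophages after IL-4 (-1.41, SE 0.43, adjusted p = 0.042) and had 0.83 after PBS. Of the 16 tested genes, 7 were higher in macrophages and 0 in microglia after IL-4, against 12.6% and 14.1% of all genes, and 7 and 3 after PBS, against 10.5% and 15.5%. None of the 16 passed the test of the difference between IL-4 and PBS in the edgeR model with all 12 libraries, while 1 was called towards macrophages without mouse 8 and 1 when each library had to hold 10 counts. At an unadjusted p under 0.05 the number was 1 towards microglia and 2 towards macrophages, and with DESeq2 1 and 2. Cish (mouse 1, 2, 3, 9 or 10, adjusted p up to 0.2) and Irs2 (mouse 10, adjusted p up to 0.059) lost the call after IL-4 when a mouse in parentheses was left out.

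Of 13 genes of MHC class II presentation, 6 were higher in IL-4 macrophages and 1, the costimulator Cd86, was higher in IL-4 microglia (0.81), against 12.6% and 14.1% of all genes. After PBS it was 4 and 0, against 10.5% and 15.5%. Cd74, the invariant chain, measured 25536, 28752 and 17425 in IL-4 macrophages and 6988, 5879 and 5489 in IL-4 microglia. The PBS microglia had 1049, 1252 and 643, lower than any IL-4 microglia library, and the difference narrowed from -3.96 to -2.00 (change 1.96, SE 0.32, adjusted p = 0.034). H2-Aa, H2-Ab1 and H2-Eb1, the classical chains, had -2.23, -2.50 and -2.42 after IL-4 and -4.85, -4.04 and -5.33 after PBS, and their changes were not called in the model with all 12 libraries. The number of genes of the list shifted towards microglia was 1 in that model. It was 0, 4, 0, 0, 1 and 0 without mouse 1, 2, 3, 8, 9 or 10, 2 without the block, 0 against a fold of 2, 4 with all genes that had a count, 4 of 11 when each library had to hold 10 counts and 4 with DESeq2. H2-DMa, which loads peptides, went the other way, from 0.21 to -0.81 (adjusted p of the change = 0.042). Ccr7, the receptor that guides dendritic cells to lymph nodes, had no count in the 3 PBS microglia libraries and 414, 142 and 824 in IL-4 microglia, against 342, 163 and 194 in IL-4 macrophages. After PBS macrophages were at least 25.4-fold higher, taking 3 counts per library as the limit for the microglia, and after IL-4 the groups overlapped. The 10 dendritic cell markers, Ccr7 among them, summed to 100.1 to 172 CPM in IL-4 microglia and 13.9 to 24.4 in IL-4 macrophages, and to 176 to 458 and 25.4 to 65.9 after PBS. Siglech, 1 of these markers, is also in the homeostatic microglia list, so the sum is not of dendritic cells alone. Of the 8 tested, 7 had a change towards microglia, 1 of them called, with a median of 2.31 over the 8, and the part of dendritic cells in these levels was not tested. Cd74 (mouse 1, 3, 8 or 10, adjusted p up to 0.14) and H2-DMa (any mouse, adjusted p up to 0.17) lost the call of the change when a mouse in parentheses was left out. Cd86 (mouse 8 or 10, adjusted p up to 0.053) lost the call after IL-4 when a mouse in parentheses was left out.

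The 18 reversed genes were each higher in microglia after PBS and higher in macrophages after IL-4. Hbegf, a heparin-binding growth factor of the EGF family, measured 1511, 7203 and 1966 normalized counts in IL-4 macrophages and 810.0, 2199.7 and 604 in IL-4 microglia, with mouse 9 highest in both. After PBS it had 31.7, 46.2 and 35.1 in macrophages and 722, 924 and 173 in microglia. The difference went from 3.73 (SE 0.44, adjusted p = 0.00039) to -1.50 (SE 0.36, adjusted p = 0.016). The change of -5.23 (SE 0.57, adjusted p = 0.0079) passed under each alternative tried. Gja1 (connexin 43), a gap junction protein that astrocytes and fibroblasts express, had 2054, 18682 and 6094 in IL-4 macrophages and 1981, 4963 and 2845 in IL-4 microglia. Its difference went from 3.49 to -1.09 (change -4.58, SE 0.49, adjusted p = 0.0079). Of the 7 tested astrocyte and ependymal markers, among them Gja1, 4 were higher in microglia after IL-4 (Gfap, Slc1a3, Aldh1l1 and S100b, at 2.53, 6.11, 3.46 and 3.23), 1, Gja1, was higher in macrophages and 2 were not called. The 10 markers of that list, Gja1 included, summed to 65.4 to 463 CPM in IL-4 macrophages, highest in mouse 9, and to 23.6 to 29.5 in PBS macrophages, and the part of astrocytes in the level of Gja1 was not tested. Flrt2, a membrane protein of cell guidance, had 1468, 1963 and 1220.4 in IL-4 macrophages and 556, 690.4 and 833 in IL-4 microglia, groups that did not overlap, and a change of -3.82 (SE 0.32, adjusted p = 0.0038). Timp1, an inhibitor of metalloproteinases, and Tgfb3, a TGF-beta ligand, changed by -3.37 (SE 0.46, adjusted p = 0.018) and -6.51 (SE 0.84, adjusted p = 0.015). Rnase2a, a ribonuclease of the eosinophil-associated family, was at 5.66 to 37.5 in the PBS libraries and at 7963, 7412 and 8605 in IL-4 macrophages and 3116, 3123 and 3312 in IL-4 microglia (change -2.87, SE 0.30, adjusted p = 0.0074). Reads of this ribonuclease family can be shared between near-identical members, so its level is uncertain. Il11ra1, a chain of the IL-11 receptor, changed by -1.90 (SE 0.22, adjusted p = 0.011). Axl, a receptor for GAS6 that clears dying cells, was the smallest of the 18 changes, -0.93 (SE 0.16, adjusted p = 0.038). Axl (any mouse, adjusted p up to 0.16), Il11ra1 (mouse 2, adjusted p up to 0.051), Tgfb3 (mouse 2 or 3, adjusted p up to 0.064) and Timp1 (mouse 3 or 10, adjusted p up to 0.069) lost the call of the change when a mouse in parentheses was left out. Axl (mouse 8, adjusted p up to 0.092), Gja1 (mouse 1, 2, 9 or 10, adjusted p up to 0.2), Hbegf (mouse 9 or 10, adjusted p up to 0.09), Tgfb3 (mouse 8 or 10, adjusted p up to 0.082) and Timp1 (mouse 10, adjusted p up to 0.052) lost the call after IL-4 when a mouse in parentheses was left out.

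**Figure D3:**
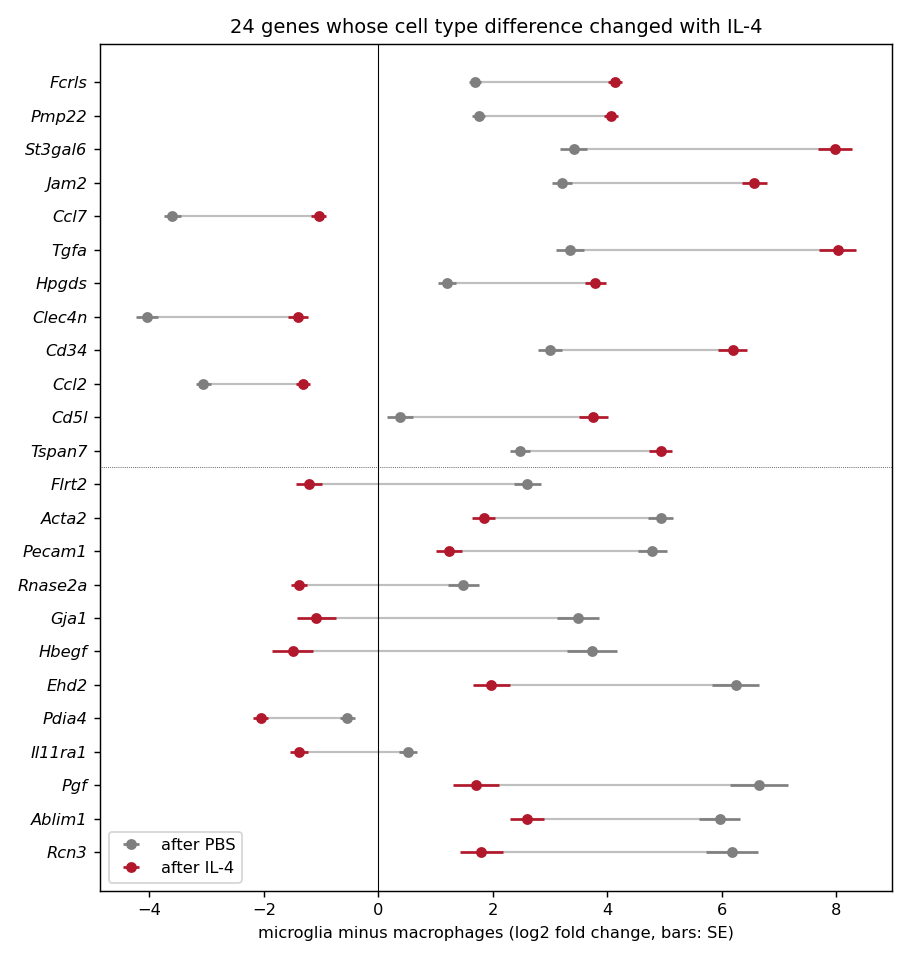
Cell type difference (log2 fold change of microglia over macrophages, bars are the SE) after PBS in grey and after IL-4 in red for the 12 genes in each direction with the lowest p of the change. Above the dotted line are shifts towards microglia, led by Fcrls (1.68 to 4.13), and below it shifts towards macrophages, where Hbegf, Gja1, Flrt2, Rnase2a and Il11ra1 cross 0.

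Differences were lost for 24 genes, 16 of them higher in microglia after PBS and 8 higher in macrophages. Igf1, a growth factor of microglia near lesions, measured 8855, 2990.2 and 6035 in IL-4 macrophages and 6512, 3150.3 and 4179 in IL-4 microglia, values that overlap, where PBS macrophages had 1559, 1079.8 and 1285 and PBS microglia 3182, 4218 and 3513. The difference went from 1.46 to -0.36 (change -1.82, SE 0.27, adjusted p = 0.022). The receptors Il1r1 and Il1rl2 of the IL-1 family, and Trf (transferrin), were also higher in PBS microglia and not DE after IL-4, with changes of -2.86, -1.45 and -1.15 (adjusted p = 0.034, 0.035 and 0.02). Of the genes higher in PBS macrophages, Nrp1 (neuropilin 1), Xdh (xanthine dehydrogenase) and the interferon-inducible Ifi204 were lost with changes of 1.31, 1.27 and 1.01 (adjusted p = 0.021, 0.035 and 0.042). The number of lost genes was 3, 2, 0 and 8 without mouse 1, 2, 3 or 10, and 28 and 27 without mouse 8 or 9. Ifi204 (mouse 1, 2, 3, 8 or 10, adjusted p up to 0.17), Igf1 (mouse 2, 3, 8 or 10, adjusted p up to 0.094), Il1r1 (mouse 1, 2, 3, 9 or 10, adjusted p up to 0.14), Il1rl2 (mouse 1, 2, 3, 9 or 10, adjusted p up to 0.13), Nrp1 (mouse 1, 2, 3 or 10, adjusted p up to 0.091), Trf (mouse 1, 2, 3, 8 or 10, adjusted p up to 0.082) and Xdh (mouse 1, 2, 3, 8 or 10, adjusted p up to 0.12) lost the call of the change when a mouse in parentheses was left out.

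Differences were gained for 29 genes, 20 higher in macrophages and 9 higher in microglia after IL-4. Among the 20 were the endoplasmic reticulum chaperone Hsp90b1, the disulfide isomerases Pdia3 and Txndc5, Sec61a1 of the channel into the reticulum, Ddost and Ganab, which act on N-linked sugars, Kdelr2, which returns proteins to the reticulum, and Herpud1, which is induced by protein load. These 8 genes were singled out after their values were seen, and no list of them was tested. The changes of Pdia3, Txndc5, Sec61a1, Ddost, Ganab, Kdelr2 and Herpud1 were -0.89, -1.04, -0.93, -0.84, -0.97, -1.09 and -1.31, with adjusted p from 0.019 to 0.049. Hsp90b1 measured 73114, 67995 and 67871 in IL-4 macrophages and 30361, 37018 and 33204 in IL-4 microglia, against 46805, 45870.1 and 47659.6 in PBS macrophages and 39305, 40633 and 44372 in PBS microglia (change -0.92, SE 0.15, adjusted p = 0.035). The groups lay apart after both injections, by more after IL-4. Pdia4, another isomerase, and Calr (calreticulin) were higher in macrophages already after PBS and were wider after IL-4. Pdia4 stood at 70584, 99777 and 77752 in IL-4 macrophages and 15662, 23565 and 23091 in IL-4 microglia (difference -2.06), with a change of -1.52 (SE 0.18, adjusted p = 0.011). Calr changed by -0.94 (SE 0.15, adjusted p = 0.03). Of the 9 genes gained by microglia, Cd5l is described above, and the myelin genes Mbp and Mobp were at 1.15 and 2.06 (adjusted p of the change = 0.032 and 0.011). Oligodendrocyte and Schwann cell markers summed to 480.5 to 609 CPM in IL-4 microglia and 127 to 142 in IL-4 macrophages, and to 732 to 789.7 and 258 to 299.8 after PBS. Of the 11 tested markers of this list, 3 (Mbp, Mobp and Pmp22) were called for a change towards microglia and 0 towards macrophages. Over all genes it was 0.741% and 0.437%. The number of markers called towards microglia was 2, 2, 1, 2, 3 and 2 without mouse 1, 2, 3, 8, 9 or 10. The part of these cells in the levels of Mbp, Mobp and Pmp22 was not tested. The number of gained genes was 7, 4, 3, 17 and 6 without mouse 1, 2, 3, 8 or 10, and 21 without mouse 9. Calr (mouse 1, 2, 3, 8 or 10, adjusted p up to 0.14), Ddost (any mouse, adjusted p up to 0.16), Ganab (any mouse, adjusted p up to 0.14), Herpud1 (mouse 1, 2, 3, 8 or 10, adjusted p up to 0.078), Hsp90b1 (mouse 1, 2, 3, 8 or 10, adjusted p up to 0.16), Kdelr2 (any mouse, adjusted p up to 0.13), Mbp (mouse 1, 2, 3, 8 or 10, adjusted p up to 0.13), Mobp (mouse 3, adjusted p up to 0.054), Pdia3 (mouse 1, 2, 3, 8 or 10, adjusted p up to 0.15), Sec61a1 (any mouse, adjusted p up to 0.16) and Txndc5 (any mouse, adjusted p up to 0.18) lost the call of the change when a mouse in parentheses was left out.

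The genes that were higher in microglia after both injections and narrowed after IL-4 were Acta2, Tagln, Pecam1, Ehd2, Pgf, Rcn1, Rcn3 and Ablim1, 8 in all. Acta2, smooth muscle actin, measured 7799.8, 9672 and 7208 in PBS microglia and 396, 533 and 385 in IL-4 microglia, against 248, 240.3 and 305 in PBS macrophages and 120.4, 105 and 122 in IL-4 macrophages, and changed by -3.09 (SE 0.28, adjusted p = 0.0042). Pecam1 (CD31), an endothelial adhesion molecule that myeloid cells can also carry, narrowed with a different order of levels. It had 399.9, 292 and 314 in PBS macrophages and 5681, 12391 and 7241 in IL-4 macrophages, while PBS microglia had 13349, 11082 and 5443 and IL-4 microglia 18186, 24842 and 16535. Its change was -3.56 (SE 0.32, adjusted p = 0.0042). The other 9 endothelial markers summed to 42.4 to 54.7 CPM in PBS macrophages and 61.6 to 102 in IL-4 macrophages, and to 1192 to 2436 and 2178 to 3343 in microglia, a sum chosen after the values were seen. Among them Flt1 measured 129, 361 and 261 normalized counts in PBS and 1891, 3774 and 1728 in IL-4 macrophages (change -2.43, SE 0.49, adjusted p = 0.061). Cldn5 averaged 95.9 and 33.4 and was wider after IL-4 (change 2.38, SE 0.33, adjusted p = 0.019). Of the 10 endothelial markers, 2 were called for a change towards microglia and 1 towards macrophages, and the part of endothelial cells in the level of Pecam1 was not tested. Ehd2, a membrane-bending ATPase of caveolae, Pgf (placental growth factor), Rcn3, a chaperone of the secretory pathway, and Ablim1, an actin binder, narrowed with changes of -4.27, -4.94, -4.38 and -3.37 (adjusted p = 0.01, 0.013, 0.013 and 0.013). For these 4 genes the IL-4 macrophage mean was 8.45 to 34.8 times that of PBS macrophages. Fibroblast and pericyte markers summed to 3333 to 5225 CPM in PBS microglia and 339.5 to 1761 in IL-4 microglia, and their part in the level of Acta2 was not tested. Ablim1 (mouse 10, adjusted p up to 0.051), Cldn5 (mouse 1, 3 or 10, adjusted p up to 0.074), Pgf (mouse 1, 2 or 3, adjusted p up to 0.061) and Rcn3 (mouse 1, 2, 3 or 10, adjusted p up to 0.061) lost the call of the change when a mouse in parentheses was left out.

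Transcripts of the mitochondrial genome were higher in microglia, while few nuclear genes of the same complexes were DE. The 13 mitochondrially encoded protein genes took 8.86% ± 3.00 (SD, n = 3) of the counts in IL-4 microglia and 1.08% ± 0.300 (SD, n = 3) in IL-4 macrophages, against 2.56% ± 0.417 (SD, n = 3) and 0.619% ± 0.112 (SD, n = 3) after PBS. Of the 13, 12 were higher in microglia after IL-4 and 11 after PBS, against 14.1% and 15.5% of all genes. The medians were 2.82 and 1.70. The difference was larger after IL-4 in all 13, and it passed the test for mt-Nd2, a subunit of complex I (change 1.10, SE 0.18, adjusted p = 0.035). The number that passed was 10 with DESeq2, 6 with all genes that had a count, 6 of 12 when each library had to hold 10 counts, 3 with all 18 libraries, 2 without mouse 9 and 0 without the block or without any other mouse. mt-Cytb, of complex III, measured 69386, 44388 and 56936 in IL-4 macrophages and 742126, 330384 and 481244 in IL-4 microglia (difference 3.07, SE 0.19, adjusted p = 1.4e-05). Of 50 nuclear-encoded genes of the respiratory chain, 1 (Ndufa4) was higher in microglia and 3 were higher in macrophages after IL-4, a share below the 26.7% of all genes, and the median was -0.01. With DESeq2 size factors it was 3 and 1, with a median of 0.05. mt-Nd2 (mouse 1, 2, 3, 8 or 10, adjusted p up to 0.12) lost the call of the change when a mouse in parentheses was left out.

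Proliferation genes were higher in microglia throughout, 30 of 30 after IL-4 and 30 of 30 after PBS, against 14.1% and 15.5% of all genes. Mki67 (Ki-67) measured 578, 342 and 458 in IL-4 macrophages and 2434, 2919.9 and 2512 in IL-4 microglia, groups well apart (2.48, SE 0.31, adjusted p = 0.00058). The median of the list was 3.27 after IL-4 and 2.36 after PBS, and Birc5 and Ube2c, which act in mitosis, were wider by the test (adjusted p = 0.0497 and 0.048). Dividing cells of other types were not separated from microglia here, and their part was not tested. Of 16 interferon-stimulated genes, 5 were higher in microglia after IL-4 and 6 were higher in macrophages after PBS, against 14.1% and 10.5% of all genes. The change passed its test for 2 of them, both towards microglia. Ifit2 gained a difference (change 1.80, SE 0.33, adjusted p = 0.043), and Ifi204 lost one (change 1.01, SE 0.18, adjusted p = 0.042). Irf7, the interferon regulatory factor that amplifies the response, was higher in macrophages after PBS (-1.09, SE 0.30, adjusted p = 0.03) and higher in microglia after IL-4 (1.10, SE 0.31, adjusted p = 0.029), and the change itself was not called (adjusted p = 0.057). Birc5 (any mouse, adjusted p up to 0.19), Ifi204 (mouse 1, 2, 3, 8 or 10, adjusted p up to 0.17), Ifit2 (mouse 1, 2, 3, 8 or 10, adjusted p up to 0.25) and Ube2c (any mouse, adjusted p up to 0.19) lost the call of the change when a mouse in parentheses was left out. Irf7 (mouse 2, 8 or 10, adjusted p up to 0.11) lost the call after IL-4 when a mouse in parentheses was left out.

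In the remaining lists more of the called genes were higher in macrophages. Over all genes, 14.1% were higher in microglia and 12.6% in macrophages after IL-4, and the counts below are in that order. More were also higher in macrophages after PBS, where the shares of all genes were 15.5% and 10.5%. The PBS counts were 5 and 14 for disease-associated, 8 and 14 for phagocytosis and 3 and 11 for chemokine receptor genes. For transcription factors, lipid handling and glycolysis they were 6 and 21, 3 and 14, and 3 and 13. Disease-associated microglia genes, which microglia and macrophages both express in lesions, were higher in microglia and in macrophages for 2 and 15 of 25 genes after IL-4. Gpnmb (-3.42), Itgax (-4.46) and Spp1 (-2.36) were higher in macrophages, and Cst7 (2.39) and Lpl (1.36) in microglia. For phagocytosis and complement it was 8 and 14 of 27: C1qa and C1qc, chains of the first complement component, were higher in microglia (1.42 and 1.44), and Cd163 (-1.95), Cd36 (-2.05) and C3 (-1.68) in macrophages. Among chemokine receptors and adhesion genes it was 1 and 9 of 18, Cx3cr1 alone being higher in microglia and Cxcr4 (-3.33) among those higher in macrophages. Of the myeloid transcription factors it was 7 and 19 of 38, with Pparg (-2.44), Nr4a1 (-2.84) and Egr1 (-2.30) higher in macrophages and Id3 (5.69), Sall3 (4.05) and Mef2c (2.27) higher in microglia. Lipid handling genes (3 and 16 of 22) and glycolysis genes (2 and 13 of 20) were mostly higher in macrophages, for instance Fabp5 (-1.90), Abca1 (-1.52), Slc16a3 (-1.97) and Ldha (-0.92). Fabp5 and Apoc2 were narrower than after PBS (changes 1.42 and 1.25, adjusted p = 0.02 and 0.042). Apoc2 (mouse 1, 2, 3, 8 or 10, adjusted p up to 0.17) and Fabp5 (mouse 1, 3 or 10, adjusted p up to 0.084) lost the call of the change when a mouse in parentheses was left out.

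**Figure D4:**
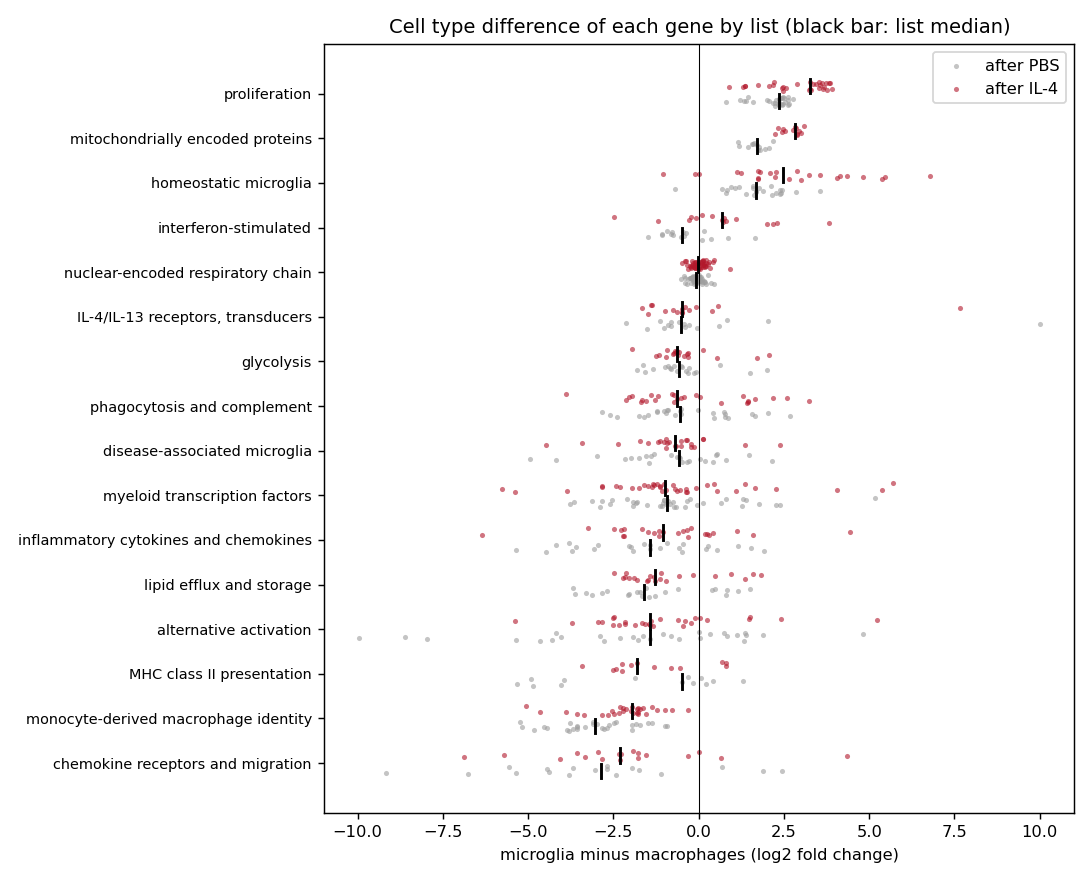
Each point is a gene of 1 of 16 lists, placed by its cell type difference (log2 fold change of microglia over macrophages) after PBS in grey and after IL-4 in red, and black bars are list medians. Homeostatic microglia genes moved from a median of 1.68 to 2.46 and macrophage identity genes from -3.04 to -1.97.

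The largest differences after IL-4 were of genes with no or 1 count in the 3 libraries of the other cell type. By fitted fold change and a mean of at least 100 normalized counts, the 12 leading genes higher in microglia were Clec14a, Smoc2, Itih4, Col5a2, Slc22a8, Nfib, Ptprk, Tmem98, Lum, Lamb1, Fgd5 and Moxd1. All 12 had no count in the IL-4 macrophages, so their folds are lower bounds, from 209.7 to 1253 with 3 counts per library as the limit. Clec14a, a membrane protein of endothelial cells, measured 3768, 2585 and 4846 and Lum (lumican, a matrix proteoglycan of fibroblasts) 1348, 545 and 117. Mouse 10 was lowest for Lum and highest for Clec14a. Clec14a, Lum, Col5a2, Lamb1 and Fgd5 are known from endothelial cells or fibroblasts, and the sums of those markers are given above. The 12 leading genes higher in macrophages were Prokr1, Acpp, Clmn, Zfp821, Lrp11, Kmo, Erv3, B3gnt5, Cd2, Ocstamp, Nlrp10 and Plcxd2. The first 7 had no count in IL-4 microglia and were at least 34.7- to 55.5-fold higher in macrophages. The other 5 had 1 count, as B3gnt5, a glycosyltransferase of glycolipids, with a ratio of 803 (95% counting interval 144 to 31729.7). Kmo, kynurenine monooxygenase of tryptophan breakdown, measured 131, 119 and 88.9 in IL-4 macrophages and 139, 66.3 and 99.9 in PBS macrophages. IL-4 microglia were also the libraries with the fewest detected genes. Prokr1, a prokineticin receptor, measured 229.7, 148 and 157 in IL-4 macrophages and 70.4, 172 and 168 in PBS microglia. Zfp821 and Lrp11 were present in PBS microglia, at 99.7, 141 and 134 for Zfp821 and 104, 433 and 346 for Lrp11, and had no count in any IL-4 microglia library. Intervals and limits cover counting error alone.

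**Figure D5:**
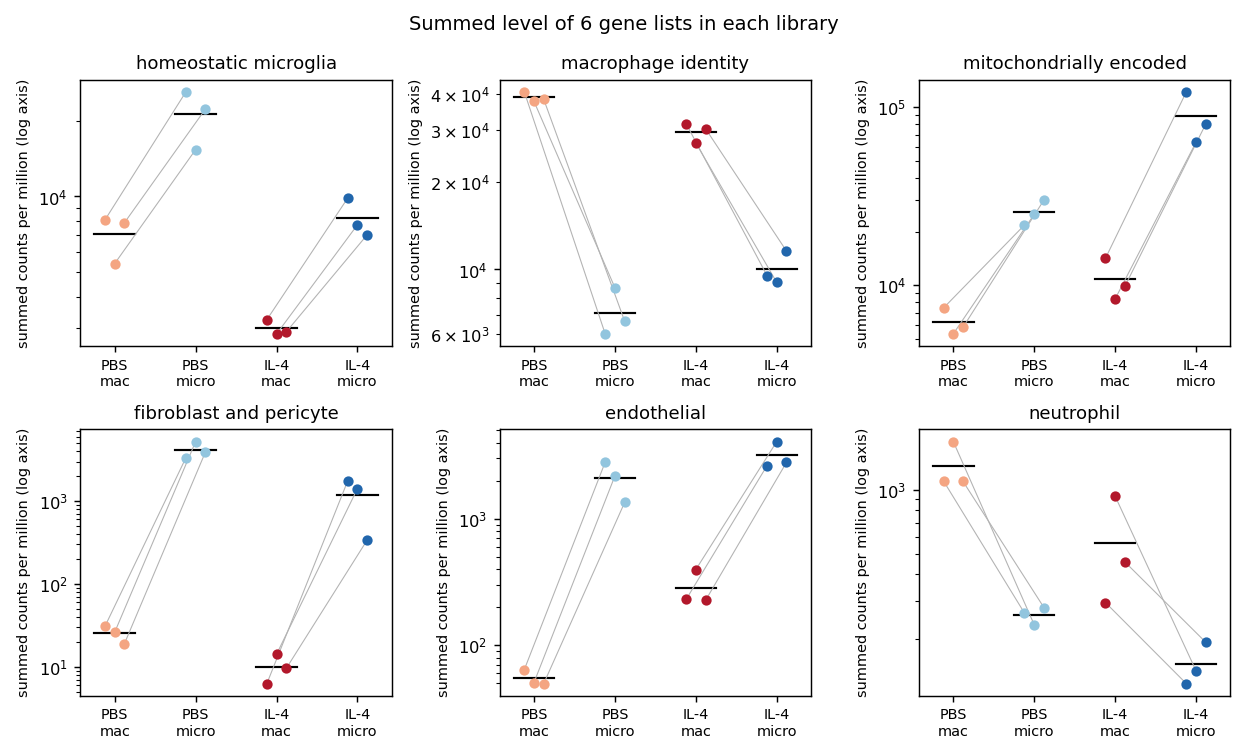
Summed CPM of 6 gene lists in each library on a log axis, with black bars for group means and grey lines that join the cell types of a mouse. The homeostatic microglia sum was lower after IL-4 in both cell types. It was 2841 to 3238 in IL-4 and 5412 to 8072 in PBS macrophages, and 7042 to 9858 in IL-4 and 15353 to 26052 in PBS microglia. The fibroblast and pericyte sum was lowest among microglia in IL-4 mouse 10.

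Few cell type differences were told apart between IL-4 and IL-13. With all 18 libraries in 1 model, 4415 of 16535 genes (26.7%) were DE between microglia and macrophages after IL-13. The cell type difference itself differed between IL-4 and IL-13 for 6 genes (0.0363%), Fcrls, Gpr34, Cd5l, Pmp22, Pf4 and Postn, each with an adjusted p of 0.044 and each shifted towards microglia after IL-4. Fcrls had 4.13 after IL-4 and 2.35 after IL-13 (difference 1.78, SE 0.21). Gpr34 had 4.82 after IL-4 and 2.66 after IL-13, and Cd5l 3.76 after IL-4 and 1.12 after IL-13. Pf4 (platelet factor 4), a chemokine of macrophages, had -0.68 after IL-4 and -2.44 after IL-13. Other leading genes of the change from PBS lay nearer to each other under the 2 cytokines and did not pass this test, such as Pdia4 (-2.06 after IL-4 and -2.04 after IL-13) and Pecam1 (1.23 after IL-4 and 1.77 after IL-13). The calls between the cytokines were not repeated with a mouse left out, and a difference that was not called does not show that the cytokines act alike.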

How the data were processed

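RNA-seq libraries of sorted microglia and macrophages were compared, 12 in the main model. The authors aligned reads with STAR 2.5.3a and quantified genes with RSEM 1.3.0 on GRCm38 (submitters' processing notes), and deposited estimated counts per gene, which were rounded here. The release of the annotation is not given in the sources used here. RSEM divides reads shared by similar genes, so that levels of close paralogs are uncertain.

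Counts were analysed with edgeR 4.0.16 (R 4.3.3), by the quasi-likelihood test after filterByExpr and TMM scaling, with mouse as a block and the cell type difference nested in treatment. Adjusted p is Benjamini-Hochberg over 15800 genes, with a threshold of 0.05, from this model unless another tool is named. SE is the log2 fold change over the square root of F. Printed levels are divided by DESeq2 1.42.0 size factors. Pairs come from 1 cord each, while the deviations of the 2 cell types of a mouse correlated at 0.0165 to 0.0843 across genes. No replicate libraries agreed within sampling noise. The script was tested on simulated counts.

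Named genes are members of the lists, the 12 with the largest called difference after IL-4 in each direction (groups apart, mean of at least 100 normalized counts) and the 12 in each direction with the lowest p of the change. Pf4, Postn and other genes that meet none of these rules were named after their values were seen. The comparison, lists and tests were chosen with earlier results of these data known. Gene positions are GENCODE M21 on GRCm38, matched by Ensembl ID for 53360 of 53465 rows. Promoters are RefSeq windows of 300 bases, matched by symbol. Alternatives were the model without the block, other sets of libraries, size factors, other filters, DESeq2, glmTreat and leaving out each mouse. Figures were drawn with matplotlib 3.10.9. Counts of list members are set beside the shares of all genes, and no set test was run. Results of some genes are not reported here.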

Additional observations from a re-analysis of the deposited data

Results flagged for a closer look

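The 24 genes named for the change of their cell type difference met the same criterion: the difference between microglia and macrophages was itself different after IL-4 and after PBS by an interaction term of the edgeR model. The 12 that shifted towards microglia had changes, on the log2 scale and as IL-4 minus PBS, of Fcrls (2.45), Pmp22 (2.31), St3gal6 (4.56), Jam2 (3.36), Ccl7 (2.56), Tgfa (4.68), Hpgds (2.59), Clec4n (2.64), Cd34 (3.19), Ccl2 (1.74), Cd5l (3.38) and Tspan7 (2.46), with adjusted p from 0.0019 to 0.0066. The 12 that shifted towards macrophages had changes of Flrt2 (-3.82), Acta2 (-3.09), Pecam1 (-3.56), Rnase2a (-2.87), Gja1 (-4.58), Hbegf (-5.23), Ehd2 (-4.27), Pdia4 (-1.52), Il11ra1 (-1.90), Pgf (-4.94), Ablim1 (-3.37) and Rcn3 (-4.38), with adjusted p from 0.0038 to 0.013. They were taken by the lowest p in each direction out of 15800 genes, so their sizes are those of chosen genes. Groups of 3 mice are too small for a test of single outlying samples.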

How the results depend on the processing

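No setting turned the direction of the called difference or change of a single gene named in the text. With at least 10 counts in every library, the calls after IL-4 were 1661 higher in microglia and 1812 higher in macrophages, against 2226 and 1992 as reported. Both cell types of a mouse came from 1 cord, and the paired model is the one reported. With no replicate block 4723 genes were called after IL-4, 4379 after PBS and 202 for the change, and 50 were gained. Without the block, 28 of the 74 named changes lost their call. Fitted alone (13576 genes tested), the 6 IL-4 libraries gave 2790 calls. Against a fold of 2 (glmTreat) there were 1816 calls after IL-4, 1907 after PBS and 28 changes, with 1364 kept, 8 lost and 3 gained. DESeq2 gave 997 changes, 187 lost and 273 gained, against 186, 24 and 29 in edgeR, and the cause was not tested. With at least 10 counts in every library, a filter that drops genes near 0 in 1 group, there were 352 changes, 64 lost, 71 gained and 21 of the 48 ranked genes called. With all genes that had a count, 40 were lost. With size factors in place of TMM scaling, 4127 genes were called after IL-4. Leaving out 1 mouse gave 3422 to 3626 calls after IL-4, 2315 to 4699 after PBS, 39 to 173 changes, 1995 to 2676 kept, 0 to 28 lost, 3 to 21 gained and 45 to 47 of the 48 ranked genes. Over 133 named genes after IL-4 and all settings, 1754 of 1850 values kept their side of the threshold, and over 74 named changes 653 of 957 did. Zero counts limit folds to lower bounds, as given with each gene.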

Other observations

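Il13ra2, which encodes a receptor chain that binds IL-13, had no count in the 3 IL-4 macrophage libraries or in the 6 PBS libraries, and 0, 141 and 5.35 normalized counts in IL-4 microglia. It fell under the filter on low counts, so no test was made. Socs2, a feedback inhibitor of cytokine signals, was higher in microglia after PBS (difference 2.02) and was not called after IL-4 (difference 0.57), with a change of -1.44 (SE 0.30, adjusted p = 0.07). Osm (oncostatin M) and Ccl6, a chemokine of macrophages, kept a higher level in macrophages, with differences of -3.25 and -1.49 after IL-4 and -3.81 and -1.98 after PBS.

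Tested markers of other cells that were higher in microglia and in macrophages after IL-4 numbered 15 and 0 of 16 for fibroblasts and pericytes, 10 and 0 of 10 for endothelial cells, 0 and 7 of 12 for neutrophils, 0 and 1 of 3 for lymphocytes, 9 and 0 of 11 for oligodendrocytes and Schwann cells, 4 and 1 of 7 for astrocytes, 2 and 0 of 5 for neurons, 3 and 0 of 8 for dendritic cells, 1 and 0 of 3 for eosinophils and mast cells and 0 and 0 of 5 for erythroid cells, where 14.1% and 12.6% of all genes were called. The dendritic cell list includes Siglech, which is also in the homeostatic microglia list.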
